A study of Mus musculus with 6 samples.

Results

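The thrombospondin family was measured in tail tendons of WT and *Mkx*-/- mice. Its 5 members, *Thbs1*, *Thbs2*, *Thbs3*, *Thbs4* and *Comp*, were taken by gene symbol from a table of 44788 symbols, and each of the 5 was present and had enough reads to test. Bulk RNA sequencing was performed on whole tail tendons of the C57BL/6 strain, with 3 libraries from WT mice and 3 libraries from mice without a functional copy of *Mkx*. *Mkx* encodes Mohawk, a homeobox transcription factor of tendon cells. The labels give an age of 3 weeks for all mice, and the text of the study gives an older age for the same tendons. They name no further treatment, allele or sex, and do not say whether a library holds tendons of 1 animal or of several, so the p-values below measure the spread between these libraries, which may be partly technical.

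Thrombospondins are secreted, calcium-binding glycoproteins that assemble into oligomers and bind cells, growth factors and collagen. *Thbs1* and *Thbs2* encode the trimeric subgroup, whose chains carry thrombospondin type 1 repeats, and both are known as inhibitors of angiogenesis. *Thbs3*, *Thbs4* and *Comp* encode the pentameric subgroup, which lacks these repeats. *Thbs4* and *Comp*, whose product is cartilage oligomeric matrix protein, are known as abundant matrix genes of tendon, where their proteins bind fibrillar collagen.

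The libraries held between 10835070 and 14160301 counts. *Col1a1*, *Col1a2* and *Sparc* together took 42.0% to 48.5% of them in WT and 28.3% to 34.8% in *Mkx*-/- libraries. Levels are therefore given as normalized CPM, that is, counts scaled to a common library size (CPM) after TMM normalization, which corrects for such differences in composition. *Mkx* itself had a mean of 138 ± 4.92 in WT against 45.7 ± 9.68 CPM in *Mkx*-/- tendons (n = 3 each, SD), and the counts per gene do not show whether these reads cover the targeted exons. All 10 tendon markers were detected. Of these, 1 passed as higher and none as lower in edgeR, and without adjustment a p under 0.05 was reached by 3 in the higher and 3 in the lower direction. Here and below, the share of all genes under this unadjusted threshold was not counted, so such numbers cannot be set against it. Their median log2 fold change was -0.22. *Tnmd* had 886 to 1292 CPM over the 6 libraries. *Scx*, a tendon transcription factor, had 17.3 to 53.4 CPM in WT and 13.3 to 19.4 CPM in *Mkx*-/- libraries, which overlapped, and did not pass (log2 fold change -1.14, adjusted p = 0.106 in edgeR). WT replicate 1 stood apart from the other WT libraries, with a chi-square per degree of freedom of 34.8 and 36.4 against them, whereas WT replicates 2 and 3 differed by 7.59. The *Mkx*-/- libraries also lay apart from each other, with values of 20.7 to 24.4 between them. Reads of the Y-linked *Ddx3y* were found in WT replicate 3 alone (301 counts), so this library was the only one with RNA of a male mouse. For the family members and the genes listed with them, changes of call without 1 library are given by name or as counts, and no such values are given for other single genes.

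The genes lie on 5 chromosomes. In mm9, *Thbs4* lies on chromosome 13 from 93521545 to 93564773 on the minus strand and *Comp* on chromosome 8 from 72897447 to 72905964 on the plus strand. *Thbs3* lies on chromosome 3 from 89019102 to 89030759 on the plus strand, *Thbs2* on chromosome 17 from 14802507 to 14831269 on the minus strand, and *Thbs1* on chromosome 2 from 117937612 to 117952869 on the plus strand. Their longest coding transcripts have 22 exons in *Thbs1*, *Thbs2* and *Thbs4*, 23 in *Thbs3* and 19 in *Comp*. The coding sequences of the pentameric subgroup were identical at 69.0% to 70.4% of aligned bases, and those of *Thbs1* and *Thbs2* at 68.9%. Between the subgroups identity was 63.0% to 65.4%. No stretch of 31 bases in the transcripts of *Thbs2*, *Thbs3*, *Thbs4* or *Comp* occurred in a coding transcript of another gene, and 8 of 5818 such stretches of *Thbs1* did. In the sense direction, the members thus share almost no sequence of that length with each other or with other coding genes. Reverse complements were not compared. *Mtx1*, which encodes a mitochondrial import protein, runs over *Thbs3* on the opposite strand and shares 318 exonic bases with it. *Mtx1* had only 10.7 ± 1.11 against 11.8 ± 1.49 CPM in WT and *Mkx*-/- tendons (n = 3 each, SD), far below *Thbs3*, and whether the counting used strand is not given in the sources used here.

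Promoter sequences are shown for *Thbs2*, *Thbs3* and *Thbs4*, the 3 members matched in the RefSeq promoter table, so that their motifs can be set side by side. Each is the 250 bases before the RefSeq start site, 5′ to 3′ on the strand of the gene, in build GRCm38.p6. Capitals mark CCAAT, the box bound by NF-Y, and GGAATG, the core bound by TEAD factors, on either strand.
Thbs2 (chr17:14694263-14694512, minus strand): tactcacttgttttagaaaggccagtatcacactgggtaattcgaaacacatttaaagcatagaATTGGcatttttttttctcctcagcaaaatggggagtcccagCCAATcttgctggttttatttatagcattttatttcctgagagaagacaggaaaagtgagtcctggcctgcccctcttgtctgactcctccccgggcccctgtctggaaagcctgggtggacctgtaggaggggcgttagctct
Thbs3 (chr3:89214930-89215179, plus strand): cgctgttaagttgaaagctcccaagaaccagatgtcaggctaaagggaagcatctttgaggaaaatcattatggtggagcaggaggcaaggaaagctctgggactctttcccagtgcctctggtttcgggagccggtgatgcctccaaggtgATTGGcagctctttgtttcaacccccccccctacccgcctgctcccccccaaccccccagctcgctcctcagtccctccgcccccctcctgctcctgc
Thbs4 (chr13:92794819-92795068, minus strand): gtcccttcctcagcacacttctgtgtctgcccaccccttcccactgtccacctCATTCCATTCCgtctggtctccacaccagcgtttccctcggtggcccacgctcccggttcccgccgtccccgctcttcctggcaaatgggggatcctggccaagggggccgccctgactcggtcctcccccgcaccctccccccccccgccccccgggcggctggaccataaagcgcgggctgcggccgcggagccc
*Thbs2* held CCAAT at position -144 and its reverse complement ATTGG at -186, counted from the start site to the first base of the match, and *Thbs3* held ATTGG at -98. *Thbs4* held no CCAAT. It held CATTCC, the reverse complement of GGAATG, at -197 and -192, which overlap by 1 base, and neither of the others held it. Of all 32851 promoters of this length, 33.8% held CCAAT and 12.6% held GGAATG on either strand. TGANTCA, the AP-1 element, and ACANNTGT, a palindrome bound by Iroquois-class homeodomains, were in none of the 3 and in 6.75% and 6.31% of all promoters. CANNTG, the E-box, which lies within every ACANNTGT, was in each of the 3 and in 66.2% of all promoters. TATAAA was in *Thbs2* alone, as TTTATA at -126, and in 12.4% of all promoters. GGGCGG, the GC box, was found once in *Thbs3*, 3 times in *Thbs4* and not in *Thbs2*, and in 32.7% of all promoters. The GC content was 46.8% in *Thbs2*, 58.8% in *Thbs3* and 70.8% in *Thbs4*, beside a median of 52.4%.

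The family was higher in *Mkx*-/- tendons. Its summed level was 6929, 7394 and 7229 CPM in the WT libraries and 18297, 18647 and 14422 CPM in the *Mkx*-/- libraries. The mean was 7184 ± 236 CPM in WT and 17122 ± 2345 CPM in *Mkx*-/- (n = 3 each, SD), which is 2.38 times as high. As a share of all counts, without any scaling, the family took 0.637% to 0.695% in WT and 1.64% to 2.1% in *Mkx*-/- libraries. By edgeR's quasi-likelihood test with Benjamini-Hochberg adjustment over the 14550 genes tested, 3 of the 5 members passed an adjusted p of 0.05 as higher, and none was lower. Of all genes tested, 3.18% passed as higher, 2.26% as lower and 5.44% in either direction. With a fold change over 2 also required, *Thbs4* and *Thbs2* remained, where 1.89% of all genes were called higher and 1.33% lower. In 4 of the 5 members every *Mkx*-/- library was above every WT library, which held for 14.6% of all genes tested, while the groups were apart in either direction in 28.2%. The median log2FC of the 5, the log2 of the *Mkx*-/- level over the WT level as edgeR fitted it, was 1.16, beside -0.0037 for all genes. In bulk tissue, more cells of a type and more RNA per cell cannot be told apart.

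**Figure D1:**
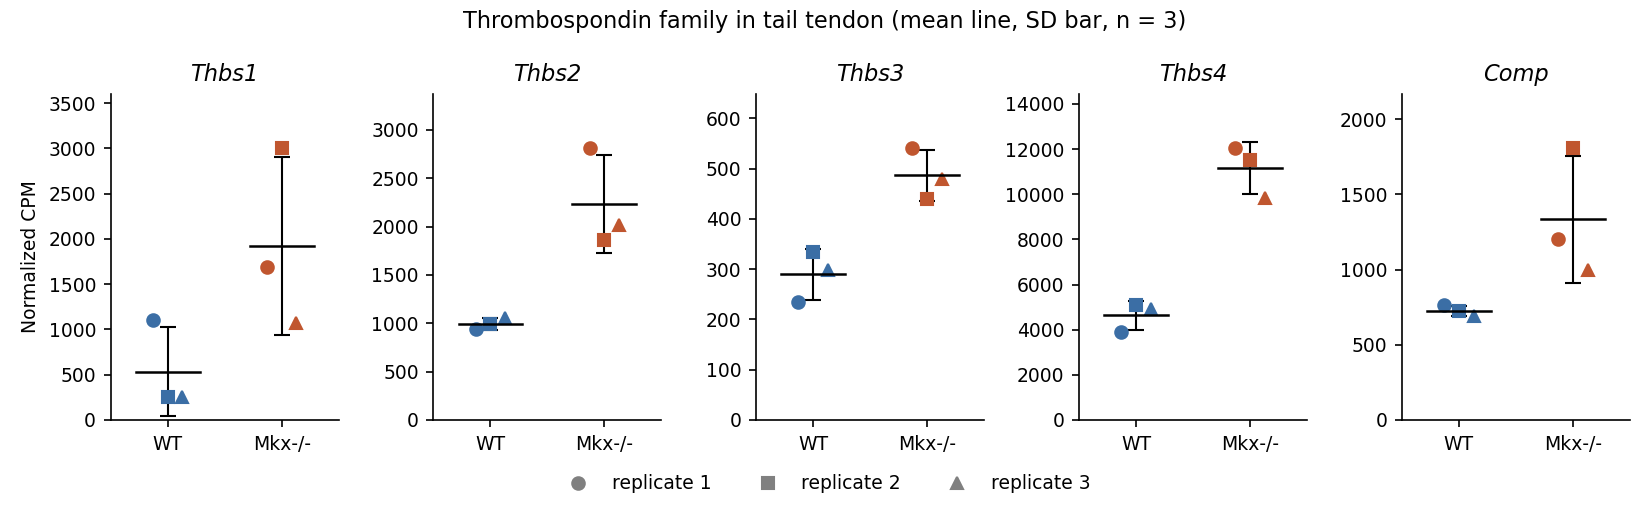
Normalized CPM (vertical axis, linear from 0) of each family member in the 3 WT and 3 *Mkx*-/- libraries, with symbols for the replicate numbers, a line at the mean and a bar of 1 SD. The groups are apart in *Thbs2*, *Thbs3*, *Thbs4* and *Comp*, whereas *Thbs1* of WT replicate 1 (1103 CPM) is above *Thbs1* of *Mkx*-/- replicate 3 (1073 CPM).

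*Thbs4* was the most abundant member and the gene with the rank of 6 by mean CPM among all genes tested. Its protein binds collagen and is known to limit fibril thickness in tendon. Its level was 3893, 5095 and 4927 CPM in the WT libraries and 12054, 11530 and 9856 CPM in the *Mkx*-/- libraries. The lowest *Mkx*-/- library was thus well above the highest WT library, and both groups were narrow. The mean rose from 4638 ± 651 to 11147 ± 1148 CPM (n = 3 each, SD), a log2FC of 1.26 (standard error, SE, 0.20, adjusted p = 0.0118 in edgeR), or 2.40-fold. The adjusted p was 0.0509 without WT replicate 2 and 0.0657 without WT replicate 3, with log2FC values of 1.32 and 1.29. The call was thus lost without either of these libraries, and the size of the change was not. Over all genes, those called higher fell from 275 to 119 and 103 in these fits, so such a loss was not particular to *Thbs4*.

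*Comp*, the gene mutated in human pseudoachondroplasia, was next in level after length was taken into account. It had 762, 723 and 694 CPM in the WT libraries and 1200, 1808 and 997 CPM in the *Mkx*-/- libraries. The WT libraries lay close together, all below the *Mkx*-/- libraries, which spread over a range of 1.81-fold. The means were 727 ± 34.1 and 1335 ± 422 CPM (n = 3 each, SD), a log2FC of 0.88 (SE 0.22). The adjusted p of 0.0598 in edgeR was just above the threshold. *Comp* passed in DESeq2 (adjusted p = 0.00197), in edgeR when every gene with a count was kept (adjusted p = 0.00723) and with scaling by library size only (adjusted p = 0.0194), and it did not pass in any of the 6 fits with 1 library omitted.

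*Thbs3*, whose product is known in skeletal development, was the member with the lowest mean CPM in both genotypes, although *Thbs1* was below it in WT replicates 2 and 3. It had 235, 335 and 298 CPM in the WT libraries and 541, 440 and 478 CPM in the *Mkx*-/- libraries. The groups did not overlap, and the spread within each was about equal. The mean rose from 289 ± 50.4 to 486 ± 51.2 CPM (n = 3 each, SD), a log2FC of 0.75 (SE 0.17, adjusted p = 0.0408 in edgeR), or 1.68-fold. The call was close to the threshold. It held without WT replicate 1 (adjusted p = 0.0466 in edgeR) and was lost in the other 5 fits that left out a library, with adjusted p between 0.0766 without WT replicate 2 and 0.127 without WT replicate 3.

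*Thbs2*, whose loss is known to give irregular collagen fibrils and lax tendons, had even WT levels. Its level was 935, 993 and 1058 CPM in the WT libraries and 2813, 1864 and 2017 CPM in the *Mkx*-/- libraries. The WT libraries were within 1.13-fold of each other, and *Mkx*-/- replicate 1 was above the other *Mkx*-/- libraries. The mean rose from 996 ± 61.5 to 2231 ± 510 CPM (n = 3 each, SD), a log2FC of 1.16 (SE 0.19, adjusted p = 0.0143 in edgeR), or 2.24-fold. Without WT replicate 2 the adjusted p was 0.0708 and without WT replicate 3 it was 0.0657. Without *Mkx*-/- replicate 1 it still passed (adjusted p = 0.0246 in edgeR), with a log2FC of 0.94.

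*Thbs1*, an activator of latent TGF-beta and a major granule protein of platelets, had the largest fitted fold change and the largest spread of the family. It had 1103, 248 and 251 CPM in the WT libraries and 1689, 3005 and 1073 CPM in the *Mkx*-/- libraries. WT replicate 1 was 4.44 times as high as the lowest WT library and lay within the *Mkx*-/- range. The means were 534 ± 493 and 1922 ± 987 CPM (n = 3 each, SD). The log2FC of 1.85 had an SE of 0.63 and did not pass the test (adjusted p = 0.125 in edgeR). Without WT replicate 1 the log2FC was 2.94 (adjusted p = 0.00494 in edgeR), and without *Mkx*-/- replicate 2 it was 1.37 (adjusted p = 0.305 in edgeR). Among the fits that left out 1 library, the call changed only without WT replicate 1, while the size moved without *Mkx*-/- replicate 2 as well. *Thbs1* also passed when every gene with a count was kept (adjusted p = 0.00789 in edgeR). Of 9 platelet and megakaryocyte markers, 3 had enough reads to test and 2 were at 0 in every library. Their summed level was 32.1 to 41.5 CPM in WT and 24.8 to 29.3 CPM in *Mkx*-/- libraries, with 32.1 CPM in WT replicate 1, the lowest WT value.

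The direction was the same under every setting tried. In each of the 5 members all 16 alternatives gave a higher level in *Mkx*-/- tendons. *Thbs2* and *Thbs4* passed in 13 of the 16, *Thbs3* in 10, *Comp* in 3 and *Thbs1* in 2. With scaling by library size only, the median log2FC of all genes moved up to 0.25, and the log2FC was 2.03 in *Thbs1*, 1.52 in *Thbs4*, 1.41 in *Thbs2*, 1.13 in *Comp* and 1.01 in *Thbs3*. These remained above the shifted median.

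**Figure D2:**
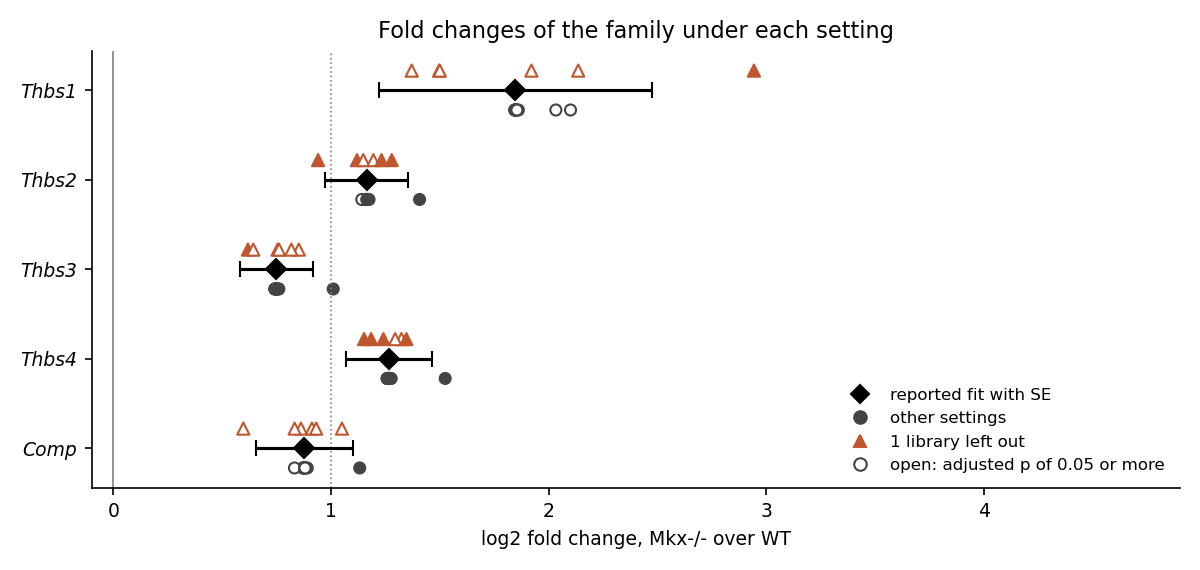
Log2 fold change of each member (horizontal axis) in the reported edgeR fit with its standard error (diamonds), under 10 other settings (circles) and with 1 library left out (triangles), where open symbols have an adjusted p of 0.05 or more and the dotted line marks a 2-fold change. All symbols are to the right of 0, and the triangles of *Thbs1* spread from 1.37 to 2.94.

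Members were then compared with each other as levels per kilobase of exon, since longer transcripts give more reads. In WT tendons the order was *Thbs4* with 1450 ± 204 CPM per kilobase, *Comp* with 300 ± 14.1, *Thbs2* with 168 ± 10.4, *Thbs1* with 91.3 ± 84.3 and *Thbs3* with 90.7 ± 15.8 (n = 3 each, SD). *Thbs1* and *Thbs3* did not differ beyond their spread, and the range of *Thbs1* (42.5 to 189) also took in *Thbs2*. In *Mkx*-/- tendons the order was *Thbs4* with 3486 ± 359 CPM per kilobase, *Comp* with 551 ± 174, *Thbs2* with 376 ± 86.0, *Thbs1* with 329 ± 169 and *Thbs3* with 152 ± 16.0 (n = 3 each, SD). Here *Comp*, *Thbs2* and *Thbs1* overlapped. *Thbs4* was first in all 6 libraries.

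A ratio between members within a library needs no scaling between libraries, so each member's share of the family's summed level per kilobase was compared. *Thbs4* made up 62.4%, 72.2% and 71.9% of it in WT against 72.5%, 67.8% and 74.0% in *Mkx*-/-. The ranges of its share overlapped between the groups, while those of its level did not. *Comp* made up 16.1%, 13.5% and 13.4% in WT and 9.52%, 14.0% and 9.87% in *Mkx*-/-. *Thbs3* made up 4.30% ± 0.494 in WT and 3.15% ± 0.513 in *Mkx*-/- (n = 3 each, SD), and was the only member whose shares did not overlap between the groups (exact two-sided permutation test, p = 0.1, 0.5 adjusted over the 5 shares). With 3 libraries against 3 this test cannot go below 0.1. *Thbs1* made up 9.67%, 1.92% and 2.0% in WT and 5.56%, 9.66% and 4.40% in *Mkx*-/-, and was the most variable share. The difference in shares was 2.60 points for *Thbs4*, -3.19 for *Comp*, 2.01 for *Thbs1* and -0.269 for *Thbs2* (exact two-sided permutation test, p = 0.5, 0.3, 0.6 and 0.9, adjusted p = 0.75, 0.75, 0.75 and 0.9). None of the 5 differences in share passed this test, and no other test of them was run. The difference turned to -0.637 points for *Thbs4* without WT replicate 1 and to 0.643 points for *Thbs2* without *Mkx*-/- replicate 2.

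**Figure D3:**
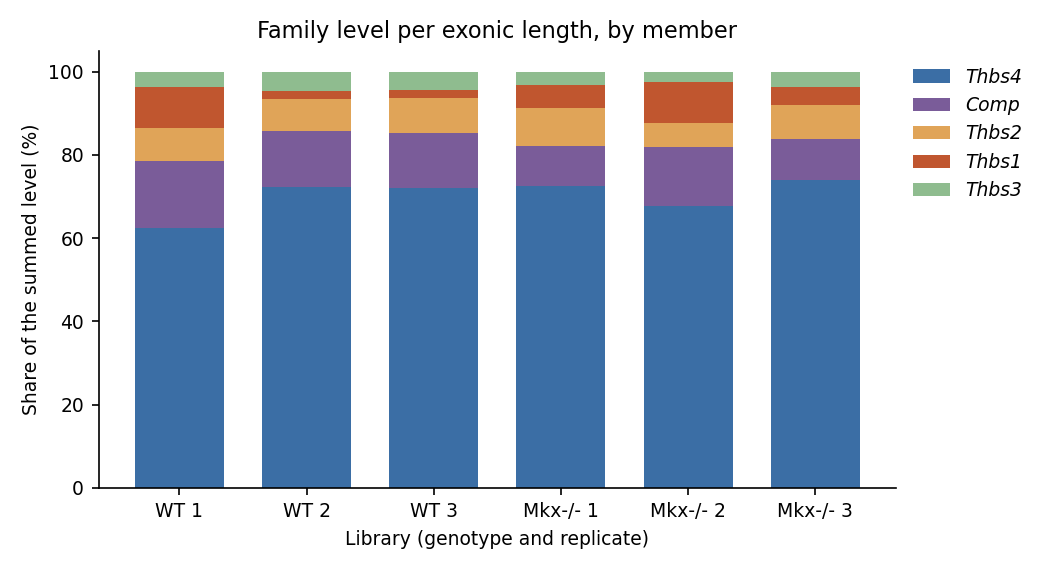
Share of each member (stacked, in percent of the family's summed counts per kilobase of exon) in each of the 6 libraries. *Thbs4* fills between 62.4% and 74.0% of every bar, and the share of *Thbs1* is largest in WT replicate 1 and *Mkx*-/- replicate 2.

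*Thbs1* and *Comp* followed the same order of libraries within each genotype at the top, with their highest WT level in WT replicate 1 and their highest *Mkx*-/- level in *Mkx*-/- replicate 2. *Thbs2*, *Thbs3* and *Thbs4* had their lowest WT level in WT replicate 1 and their highest *Mkx*-/- level in *Mkx*-/- replicate 1. Genes with the most similar pattern were found by Pearson correlation of log2 CPM over the 6 libraries, among genes averaging 5 CPM or more. The libraries form 2 genotypes, so any gene that differs between them correlates with the members, and the values are a description. For *Thbs4* the nearest genes were *Nrep*, *Cfb* and *Adam9* (r = 0.996, 0.996 and 0.995). *Cfb*, complement factor B, rose from 50.01 ± 7.43 to 178 ± 20.4 CPM (n = 3 each, SD, adjusted p = 0.00115 in edgeR). For *Thbs3* they were *Psmb6*, *Pmepa1* and *Plaur* (r = 0.998, 0.998 and 0.994), and for *Thbs2* they were *Fbxl7*, *Oaz2* and *Fam69b* (r = 0.994, 0.993 and 0.990). For *Thbs1* the nearest were *Myo1d*, *Padi2* and *Ecm2* (r = 0.998, 0.995 and 0.993), and for *Comp* they were *Sumf1*, *Pak1ip1* and *Pex14* (r = 0.999, 0.997 and 0.982).

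Genes linked to thrombospondins were described by 6 lists, which hold 84 genes, 74 of them with enough reads to test. One list holds genes for other proteins with a type 1 repeat, which share this domain and need not act with thrombospondins. All lists were chosen with earlier results of these data known. Of these 74, 10 passed as higher (13.5%, beside 3.18% of all genes) and 1 as lower (1.35%, beside 2.26%), and 63 did not pass. The list of other repeat proteins gave 4 of the 10. The number that passed as higher was 7 to 11 with 1 library left out and 13 in DESeq2, and the number that passed as lower was 0 to 3 and 6.

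None of 14 thrombospondin receptor genes passed in edgeR. At an unadjusted p under 0.05, 2 were higher and 2 lower, and the median log2FC was 0.041. Many genes reached that threshold, as *Thbs1*, with an unadjusted p of 0.0176 in edgeR, had the rank of 2049 by p among the 14550 genes tested. The 2 most abundant per length were *Calr*, which encodes calreticulin, a partner of the *Thbs1* product at the cell surface, and *Lrp1*, which takes up thrombospondins by endocytosis. *Lrp1* had 2396, 2136 and 1958 CPM in WT and 1887, 1766 and 1566 CPM in *Mkx*-/- libraries, a log2FC of -0.31 (SE 0.16, adjusted p = 0.285 in edgeR). *Calr* had a log2FC of 0.49 (adjusted p = 0.205 in edgeR). *Cd36* and *Cd47*, the classical receptors of the *Thbs1* product, had log2FC values of -0.03 and 0.19 (adjusted p = 0.961 and 0.359 in edgeR).

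Of 13 tested matrix partners, 3 passed as higher and none as lower, with a median log2FC of -0.033. *Fn1*, fibronectin, had 1091, 1021 and 931 CPM in WT and 2774, 3175 and 2850 CPM in *Mkx*-/- libraries, a log2FC of 1.53 (adjusted p = 0.00173 in edgeR). *Matn3*, a cartilage matrix protein mutated with *COMP* in human multiple epiphyseal dysplasia, had 35.1, 29.2 and 35.1 CPM in WT and 105, 88.5 and 79.4 CPM in *Mkx*-/- libraries, a log2FC of 1.45 (adjusted p = 0.00181 in edgeR). *Acan*, aggrecan, had 21.3, 34.5 and 40.3 CPM in WT and 172, 109 and 160 CPM in *Mkx*-/- libraries, a log2FC of 2.20 (adjusted p = 0.0038 in edgeR). All 3 were apart between the groups and passed in all 16 alternatives. The collagen I genes, which encode the main collagen bound by the pentameric members, went the other way in mean level. *Col1a2* was lower in every *Mkx*-/- library, with a log2FC of -1.02, and did not pass (adjusted p = 0.0933 in edgeR). *Col1a1* had a log2FC of -0.68 (adjusted p = 0.287 in edgeR).

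Of 11 proteases and inhibitors, only *Mmp2*, a gelatinase, passed in edgeR, with a log2FC of 1.12 (adjusted p = 0.0038). *Htra1*, a serine protease that cleaves the *Comp* product, and *Grn* had log2FC values of -0.22 and -0.20 (adjusted p = 0.499 and 0.482 in edgeR). Of 10 genes of the latent TGF-beta complex and its targets, 2 passed as higher and 1 as lower. *Ltbp2*, a microfibril-associated relative of the latent TGF-beta binding proteins, had 25.8, 15.5 and 8.41 CPM in WT and 55.8, 85.6 and 41.8 CPM in *Mkx*-/- libraries, a log2FC of 1.88 (adjusted p = 0.0351 in edgeR). *Ltbp1*, which tethers latent TGF-beta to the matrix, fell, with 141, 189 and 193 CPM in WT and 100.2, 77.1 and 98.9 CPM in *Mkx*-/- libraries, a log2FC of -0.92 (adjusted p = 0.0215 in edgeR). *Ltbp1* and *Ltbp2* passed in 11 of the 16 alternatives each, with an adjusted p of 0.0818 and 0.126 without WT replicate 2. *Tgfbi* and *Ltbp4*, the most abundant per length of the others, had log2FC values of 0.31 and 0.02 (adjusted p = 0.262 and 0.971 in edgeR).

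None of 12 folding and glycosylation genes passed in edgeR, with 2 higher and 1 lower at an unadjusted p under 0.05 and a median log2FC of 0.27. *Serpinh1*, the collagen chaperone, and *Hspa5*, the main chaperone of the endoplasmic reticulum, had log2FC values of -0.01 and 0.27 (adjusted p = 0.983 and 0.408 in edgeR).

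Of 14 tested genes for other proteins with a thrombospondin type 1 repeat, 4 passed as higher and none as lower. *Cilp2*, a cartilage intermediate layer protein, had 817, 847 and 729 CPM in WT and 2177, 2174 and 1845 CPM in *Mkx*-/- libraries, a log2FC of 1.37 (adjusted p = 0.00271 in edgeR). *Ism1*, isthmin, had 17.6, 32.7 and 26.1 CPM in WT and 106, 84.2 and 82.4 CPM in *Mkx*-/- libraries, a log2FC of 1.84 (adjusted p = 0.00393 in edgeR). The groups did not overlap in either gene, and both passed in all 16 alternatives. *Spon1* and *Thsd7a* had log2FC values of 1.25 and 1.02 (adjusted p = 0.0179 and 0.0396 in edgeR), and they passed in 14 and 10 of the 16 alternatives. The highest adjusted p in edgeR was 0.0721 for *Spon1*, without WT replicate 3, and 0.131 for *Thsd7a*, without *Mkx*-/- replicate 3. *Cilp*, the paralog of *Cilp2*, had 3216, 1632 and 1509 CPM in WT and 5628, 6252 and 3692 CPM in *Mkx*-/- libraries and did not pass (adjusted p = 0.0631 in edgeR). Its WT level was highest in WT replicate 1 and its *Mkx*-/- level in *Mkx*-/- replicate 2, as in *Thbs1*. *Spon2* had a log2FC of -0.02 (adjusted p = 0.987 in edgeR).

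**Figure D4:**
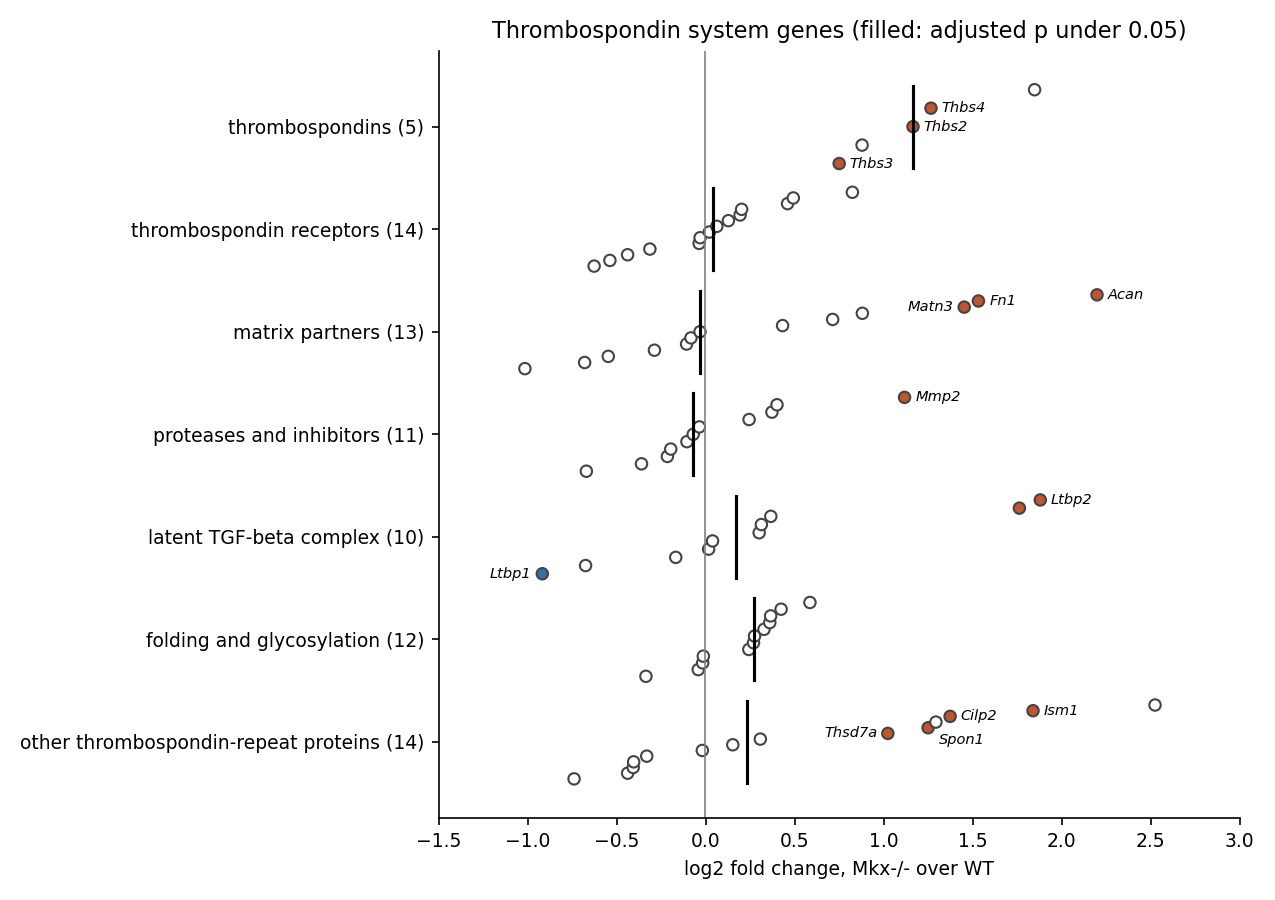
Log2 fold change of the tested genes of the family and of the 6 lists (number of tested genes in parentheses), with a short black line at each list's median and a grey line at the median of all genes. Filled points passed an adjusted p of 0.05, in orange where higher and in blue where lower in *Mkx*-/-, and the family has the highest median of the lists.

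Markers of other cell types also differed between the groups. Of 18 skeletal muscle markers, 3 passed as higher in edgeR, and at an unadjusted p under 0.05, 16 were higher and none lower. The median log2FC of this list was 2.89, and its summed level was 334 to 594 CPM in WT and 934 to 3708 CPM in *Mkx*-/- libraries. The muscle sum was 3708, 1865 and 934 CPM in *Mkx*-/- replicates 1, 2 and 3, the order in which *Thbs4* stood there. In WT replicates 1, 2 and 3 the muscle sum was 594, 334 and 582 CPM, the reverse of the order of *Thbs4*. Without *Mkx*-/- replicate 1, which had the highest muscle sum, the log2FC of *Thbs4* was 1.18 (adjusted p = 0.0285 in edgeR). The other *Mkx*-/- libraries still had a muscle sum above every WT library, so this fit cannot show the part of muscle. With the markers removed before scaling the log2FC of *Thbs4* was 1.27 (adjusted p = 0.0115 in edgeR). That removal changes the scaling only and takes no muscle reads out of the *Thbs4* counts, so it cannot show their part. Of 8 Schwann cell markers none passed in edgeR, all 8 had an unadjusted p under 0.05 in the higher direction, and their sum was 8146 to 10775 CPM in WT and 12650 to 23481 CPM in *Mkx*-/- libraries. Of 10 endothelial markers 2 passed as higher, with sums of 67.2 to 84.8 and 128 to 168 CPM, and of 9 macrophage markers 3 passed as lower, with sums of 577 to 617 and 369 to 457 CPM. Of 11 tested cartilage markers, 3 passed as higher and 1 as lower, and their sum was 3753 to 5911 CPM in WT and 1721 to 2967 CPM in *Mkx*-/- libraries. *Acan*, *Matn3* and *Ucma* were the 3 that rose and *Col11a2* the 1 that fell, and *Matn1* was at 0 in every library. *Col11a2* alone carried the lower sum. Without it, an omission chosen after seeing the values, the sum was 572 to 1100 CPM in WT and 828 to 1340 CPM in *Mkx*-/- libraries, and the groups overlapped. Of 9 osteoblast and osteocyte markers 2, *Runx2* and *Alpl*, had enough reads to test, with sums of 1.34 to 2.32 and 4.85 to 5.47 CPM. Neither passed (adjusted p = 0.0734 and 0.0722 in edgeR), with 6 to 47 counts in a library. The other markers of this list had at most 23 counts in a library, and their sum is not included. Of 7 keratinocyte markers 3 had enough reads to test, with sums of 0.709 to 6.77 and 9.70 to 12.6 CPM. The part of these cells in the levels of the family was not tested.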

How the data were processed

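Total RNA of tail tendons was sequenced in 3 WT and 3 *Mkx*-/- libraries. The authors deposited raw counts per gene symbol, made from reads aligned to mm9 with MapSplice 2.1.6 per the labels. The counting program, annotation and strand setting are not given in the sources used here. No column was left unused (0). Counts were TMM-scaled and tested with the quasi-likelihood test of edgeR 4.0.16 in R 4.3.3, with genotype as the only term and Benjamini-Hochberg adjustment over the 14550 genes that passed filterByExpr. Genes called had an adjusted p under 0.05 and a fold change over 2. DESeq2 1.42.0, other scalings and filters, a replicate block and leaving out each library were alternatives. Scripts were tested on simulated data. Lengths came from GENCODE models of mm9, and promoters from RefSeq (GRCm38.p6), where 3 of the 5 members matched. The members, lists and tests were chosen with earlier results of these data known. Named genes were the members, *Mkx*, up to 4 passed genes by p and the 2 most abundant others of each list, neighbours, and the 3 most correlated genes per member. *Cd36*, *Cd47*, *Cilp* as a paralog, *Tnmd*, *Scx*, *Ddx3y* and the cartilage genes listed beside their count were named outside this rule. So were *Tek*, *Emcn*, *Esam*, *Runx2* and *Gp1bb*. Some genes that this rule takes in are counted but not reported here by name.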

Additional observations from a re-analysis of the deposited data

How the results depend on the processing

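The direction of all 5 members was the same in the 16 alternatives. Scaling by library size only called 711 genes higher and moved *Comp* past the threshold (1.13). Keeping every gene with a count called 541 higher and 322 lower, and moved *Thbs1* (1.86) and *Comp* (0.89) past it. DESeq2 moved *Comp* past it (0.87) and found 6 of the listed thrombospondin system genes lower. The deviations of same-numbered libraries from their group means had correlations of -0.000308, -0.235 and 0.313. Other combinations of a WT and an *Mkx*-/- library gave -0.399 to 0.442. With means taken over only 3 libraries, these values cannot exclude pairing, and the numbers were not taken as pairs. With the replicate number as a block, the log2 fold changes were 1.14 for *Thbs2*, 0.76 for *Thbs3* and 1.27 for *Thbs4*, with adjusted p of 0.0532, 0.103 and 0.0580 in edgeR, and 195 genes were called higher and 136 lower. With 1 library left out, the log2 fold change ranged from 1.37 to 2.94 for *Thbs1*, from 0.94 to 1.28 for *Thbs2*, from 0.62 to 0.85 for *Thbs3*, from 1.15 to 1.35 for *Thbs4*, from 0.60 to 1.05 for *Comp*. The genes called higher then numbered 103 to 321 and those called lower 112 to 248, beside 275 and 193 with all libraries, and 7 to 11 and 0 to 3 of the listed system genes passed as higher and lower. The difference in share then ranged from -0.637 points (without WT replicate 1) to 4.41 points for *Thbs4* and from -0.966 to 0.643 points (without *Mkx*-/- replicate 2) for *Thbs2*, against 2.60 and -0.269 with all libraries. The cause of these changes was not tested. With 3 libraries a group, depth was not the limit for the members, which had at least 2530 counts in every library, and the spread between libraries was.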

Other observations

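Of the 10 protein-coding genes that flank the family members in the mm9 annotation, 7 had enough reads to test and 1 passed in edgeR. *Smoc2*, a secreted calcium-binding matrix protein that lies 260710 bases from *Thbs2*, rose from 69.5 ± 6.73 to 136 ± 45.4 CPM (n = 3 each, SD), a log2FC of 0.97 (adjusted p = 0.0465 in edgeR). *Crtc1*, 290 bases from *Comp*, had 31.4 ± 2.94 and 30.6 ± 2.41 CPM (n = 3 each, SD), with a log2FC of -0.04 (adjusted p = 0.900 in edgeR). *Muc1*, 2220 bases from *Thbs3*, had 1.54 ± 0.910 and 3.66 ± 0.682 CPM (n = 3 each, SD) and did not pass (adjusted p = 0.107 in edgeR). *Serinc5* and *Mtx3* beside *Thbs4* and *Upf1* beside *Comp* had log2FC values between -0.29 and 0.30, and none of them passed.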
